A study of Salmo salar with 40 samples.

Results

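The liver transcriptomes compared here came from 20 of the 40 Atlantic salmon of the study, all sampled at day 8. They were chosen by their labels alone: 10 fish that had received lufenuron at 5 mg/kg, with treatment ended 1 day earlier, and 10 control fish that had received none. Lufenuron belongs to the benzoylureas, which stop arthropods from making chitin, and farmed salmon receive it against sea lice. Each library held the poly-A RNA of 1 liver from a different fish, and the numbers of the fish do not pair exposed with control animals. The other 20 fish, 10 exposed and 10 control, were sampled at day 14, 7 days after treatment, and serve here as a second comparison and in the shared estimate of the spread. Exposed and control fish of day 8 share the day and the tissue. The sources used here do not give strain, age, sex, feeding or tank. Tank and treatment therefore cannot be told apart, and a p-value reflects only how much these individual fish varied.

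A liver cell makes most of the blood plasma proteins, stores and exports fat, and breaks down amino acids and foreign compounds, and it needs many ribosomes to do so. Ribosomes are built in the nucleolus. RNA polymerase I transcribes the long ribosomal RNA there, small nucleolar particles modify it, a large processing complex cuts it, and many further factors fold it with the ribosomal proteins before the subunits leave through the nuclear pores. The factors that do this work are not part of the finished ribosome, so their messages can change apart from those of the ribosomal proteins.

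Reads assigned to genes ranged from 43.4 M to 76.8 M per day 8 library, and at that depth a level of 1 CPM (counts scaled to library size) stands for at least 43.4 reads. Body weight (37.6 ± 2.50 g in controls, 36.7 ± 2.98 g in exposed fish, SD, n = 10 each) and the condition factor, 100 times the weight over the cube of the length (1.07 ± 0.051 and 1.08 ± 0.051), differed by less than the spread between fish in two-sided permutation tests of 100000 resamples (p = 0.529 and 0.813, adjusted over 3 measures 0.793 and 0.813). The third measure was the reads assigned to genes, at 57.96 ± 10.05 M in controls and 52.11 ± 4.499 M in exposed fish (SD). Its p in the same permutation test was the smallest of the 3, at 0.111 (adjusted 0.333). The part of this difference in depth in the results was not tested. The markers of hepatocytes summed to between 134400 and 240600 CPM in the 20 fish. Markers of exocrine pancreas, enzymes such as trypsin and elastase, summed to 7.49, 10.2 and 144.0 CPM in control fish (lowest, median and highest) and to 7.19, 35.8 and 210.0 CPM in exposed fish. All exposed fish but 2 lay above the control median of that sum. Of 27 tested pancreas markers 25 were positive, and their median log2 fold change of 1.375 was the largest of any list. Gut and bile duct epithelium markers summed to 183 to 253 CPM in controls and 179 to 663 CPM in exposed fish, the highest being exposed fish 3. They were positive in 26 of 38 tested genes (median 0.24). Markers of stellate cells and endothelium were positive in 22 of 26 tested genes (median 0.21) and summed to 405, 731 and 946 CPM in controls and 609, 858 and 1279 CPM in exposed fish. The other lists, for erythrocytes, lymphocytes, and macrophages and neutrophils, had medians of -0.057, -0.14 and 0.063. No gene of the 7 marker lists passed the test between the groups, and the part of the stellate cell and endothelium markers in the results was not tested. In bulk tissue, fewer cells of a type and less RNA per cell cannot be told apart.

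With lufenuron 142 genes rose and 352 fell at day 8, of 30397 genes tested (edgeR quasi-likelihood test, Benjamini-Hochberg adjusted p under 0.05), which is 0.467% and 1.16% of all genes, or 1.63% together. The shares of 0.467% for rises and 1.16% for falls are the background for every gene list below. The changes were moderate: the genes that fell had a median log2 fold change of -0.77, with quartiles of -1.01 and -0.61, and those that rose a median of 0.69, with quartiles of 0.48 and 1.09. A total of 40 rises and 90 falls exceeded a factor of 2. In 314 of the 352 falls every exposed fish lay under the median control, and in 96 of the 142 rises all 10 lay above it. These genes were called from the same fish, so the counts describe them and are not separate evidence of a shared change. The median over all genes tested was 0.0052, and 49.2% of them had a negative value.

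The number of called genes changed when single fish were left out and in the fits that used the pancreas markers. Instead of 494 calls there were 1246 without control fish 1, the control lowest in ribosome assembly genes, while leaving out control fish 3, 4, 5, 7 or 9 gave 128, 311, 168, 212 and 265. Leaving out exposed fish 2, 4 or 6 gave 161, 220 and 236, and without control fish 8 there were 89 rises. The 20 fish of day 8 fitted alone gave 479 calls, 84 of the 142 rises and 258 of the 352 falls among them. The same fit with the log2 sum of the pancreas markers as a covariate gave 26, and without the 6 fish in which that sum exceeded 50 CPM (control fish 2 and 9, exposed fish 3, 4, 9 and 10) edgeR called 0, with a smallest adjusted p of 0.0656 and 3575 genes at an unadjusted p under 0.05. The fold changes themselves stayed near their size in those 14 fish: the 352 genes that had fallen had a median of -0.74, every one negative and at an unadjusted p under 0.05, and the 142 that had risen a median of 0.61. These genes had been called with the same 14 fish included, so their kept signs and p-values are not independent evidence. The fit with 14 day 8 fish also had smaller groups. In its count, fewer fish and lower pancreas markers cannot be told apart. Beyond these fits, the part of the pancreas markers in the result was not tested.

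Among the gene lists, that of ribosome assembly held the most falls. All lists were chosen with earlier results of these data known, so no list share here or below is independent evidence. Of 164 tested members of the ribosome assembly list (175 matched by name, 11 under the filter on low counts), 62 fell and none rose, a share of 37.8% against 1.16% of all genes. Their median log2 fold change was -0.57, beside 0.0052 over all genes, and 156 of the 164 values were negative. Summed over the list, the counts made up 1913, 3035 and 4484 CPM in controls and 1651, 2054 and 2757 CPM in exposed fish (lowest, median, highest). Every exposed fish lay under the median control and 3 under all controls, while 6 controls lay above every exposed fish. Without the 6 fish high in pancreas markers the list median was -0.52 and 160 values kept their sign, with 99 members at an unadjusted p under 0.05 and 0 called. Leaving out 1 fish moved the number of falls between 19, without control fish 3, and 96, without control fish 1. Without control fish 4, 5, 7 or 9 it was 39, 27, 34 or 33. Dropping exposed fish 2, 4 or 6 gave 20, 28 or 31. The median stayed between -0.65 and -0.52 in all 30 alternative fits.

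**Figure D1:**
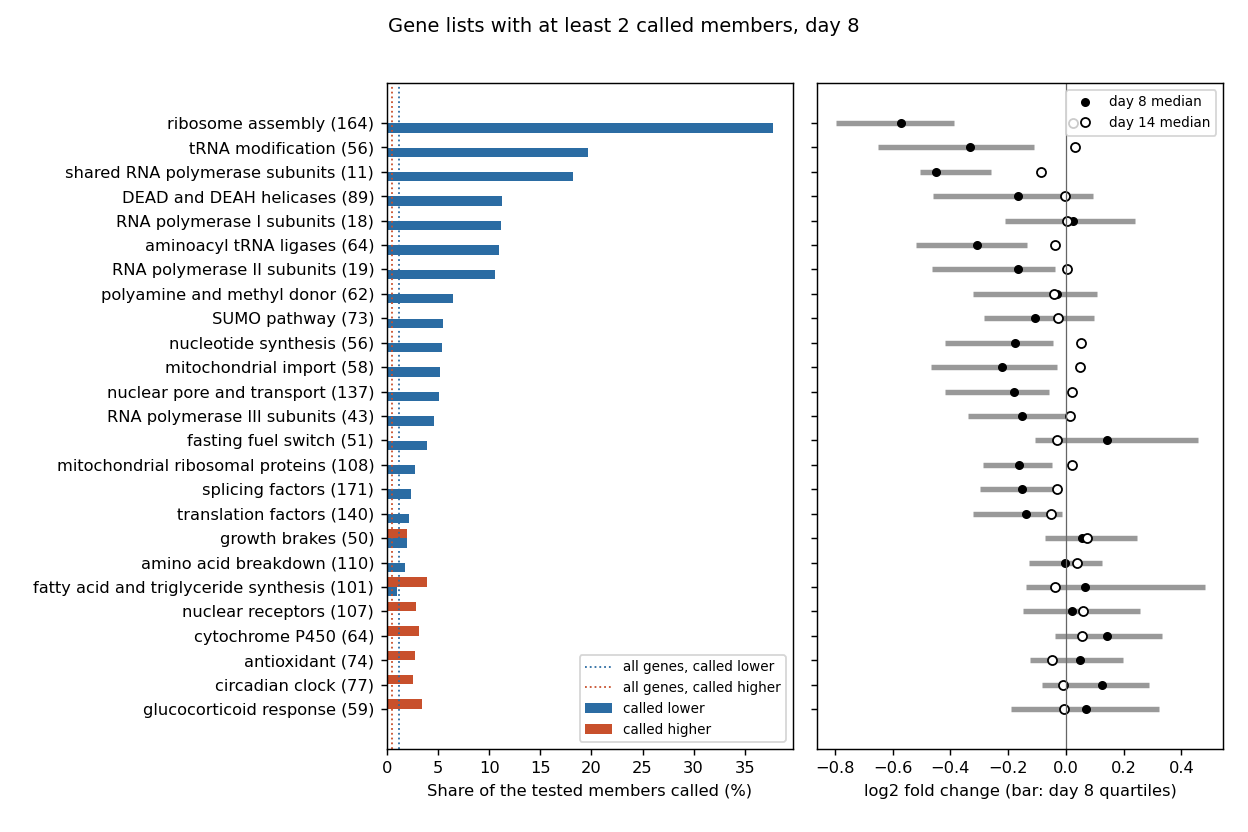
Share of the tested members called lower (blue) or higher (orange) in each gene list with at least 2 called members at day 8, number tested in brackets (left, percent; dotted lines, the shares over all genes), and the median log2 fold change at day 8 (filled, with quartiles as bars) and day 14 (open). Ribosome assembly stands at 37.8% lower with a median of -0.57, and its day 14 median is 0.023.

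Among its members, urb2, a factor of early large subunit assembly in the nucleolus, had the smallest p. Control fish were at 2.12, 6.59 and 10.7 CPM (lowest, median, highest) and exposed fish at 0.362, 1.91 and 3.10 CPM. The groups overlapped little, with 6 exposed fish below every control, and the log2 level fell by 1.85 ± 0.29 (± SE, adjusted p = 0.00178). LOC106610597, similar to WD repeat protein 43, a part of the complex that starts processing of small subunit RNA, went from 10.7, 17.6 and 29.5 CPM in controls to 7.17, 8.33 and 13.0 CPM in exposed fish. 7 of the exposed fish were below every control, and the fall was 0.98 ± 0.17 in size (adjusted p = 0.00384). The IMP4-like LOC106580531, a protein of the U3 particle that guides the first cuts of ribosomal RNA, fell by 0.61 ± 0.12, from 9.15, 13.6 and 16.0 CPM to 7.04, 8.62 and 10.9 CPM (adjusted p = 0.00899). The WD repeat 75-like LOC106586141, of the same early complex, fell by 0.91 ± 0.18, from 5.49, 11.5 and 18.4 CPM to 4.40, 6.47 and 8.00 CPM. In these 4 genes every exposed fish lay under the median control, and each kept its call in all 20 fits that left out 1 fish.

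The falls with the smallest p included 4 further genes with known roles in ribosome assembly whose names did not match that list. They were grouped here after their values were seen, so no share or background goes with them. LOC106588633, a homolog of RRP5, which is needed for cuts on the way to both subunits, had 3.69, 6.02 and 7.90 CPM in controls and 1.41, 2.49 and 4.51 CPM in exposed fish. Exposed and control fish overlapped in few animals, 8 exposed fish being below every control, and the fall was 1.16 ± 0.20 (SE, adjusted p = 0.00384). The midasin-like LOC106571345, a giant ATPase that strips factors from the maturing large subunit, fell by 1.40 ± 0.26, from 0.785, 1.20 and 2.13 CPM to 0.237, 0.511 and 0.819 CPM. LOC106575045, similar to NUFIP1, which helps to assemble nucleolar particles, fell by 0.97 ± 0.17, from 3.56, 8.54 and 10.3 CPM to 2.13, 3.78 and 5.41 CPM. For dusp12, a phosphatase whose yeast relative acts late in large subunit maturation, the values were 1.33, 2.36 and 4.38 CPM and 0.603, 1.12 and 1.78 CPM, a fall of 1.08 ± 0.19 (adjusted p = 0.00384). Every exposed fish was under the median control in these 4 genes.

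Messages for large subunits of RNA polymerase I were lower in 2 genes. The largest, polr1a, stood at 3.81, 9.52 and 13.2 CPM in controls and 2.48, 4.43 and 6.57 CPM in exposed fish, with 3 exposed fish below every control, a fall of 1.10 ± 0.19 (SE, adjusted p = 0.00384). The next, polr1b, fell by 0.62 ± 0.17 (adjusted p = 0.0492), from 5.49, 8.95 and 12.5 CPM to 4.01, 5.73 and 7.69 CPM, a call kept in 6 of the 20 fits that left out 1 fish. These were the 2 calls among 18 tested genes of the polymerase I list (11.1%, beside 1.16% of all genes). Over the list 9 values were negative and 9 positive. The list median was 0.025, a value that changed sign in 11 of 30 alternative fits, total count scaling among them. The list of subunits that polymerase I shares with the other polymerases gave 2 falls of 11 (18.2%), all 11 values negative, with a median of -0.45. Both were RPAC1 genes, the subunit of polymerases I and III: LOC106576959 fell by 0.69 ± 0.13, from 3.06, 4.86 and 6.33 CPM to 2.06, 3.13 and 3.66 CPM, and rpac1 by 0.53 ± 0.13. Polymerase III, which makes transfer RNA, had 2 falls of 43 tested genes (4.65%, median -0.15). A TFIIIB 90 kDa-like factor, LOC106610962, fell by 1.56 ± 0.33 from 0.318, 0.992 and 2.58 CPM to 0.158, 0.379 and 0.594 CPM, and RPC10, LOC106607366, by 0.45 ± 0.12. The RPC10 call was kept in 9 of the 20 fits without 1 fish. In the polymerase II list 2 of 19 fell (10.5%, median -0.17), rpb4 by 0.42 ± 0.10 and polr2h by 0.59 ± 0.15. The product of polr2h is a subunit of polymerases I and III as well, so this fall is not particular to polymerase II. It is not in the count of shared subunits above. The phosphatase gene ssu72l, whose product acts on the tail of polymerase II, fell by 0.88 ± 0.15 (adjusted p = 0.00384), from 5.24, 10.6 and 13.6 CPM to 3.05, 5.51 and 8.84 CPM, and kept its call in all 20 fits without 1 fish. Across those fits the polymerase I list had 1 to 3 falls, polymerase II 0 to 2, polymerase III 1 to 6 (the highest without control fish 1) and the shared subunits 1 or 2.

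**Figure D2:**
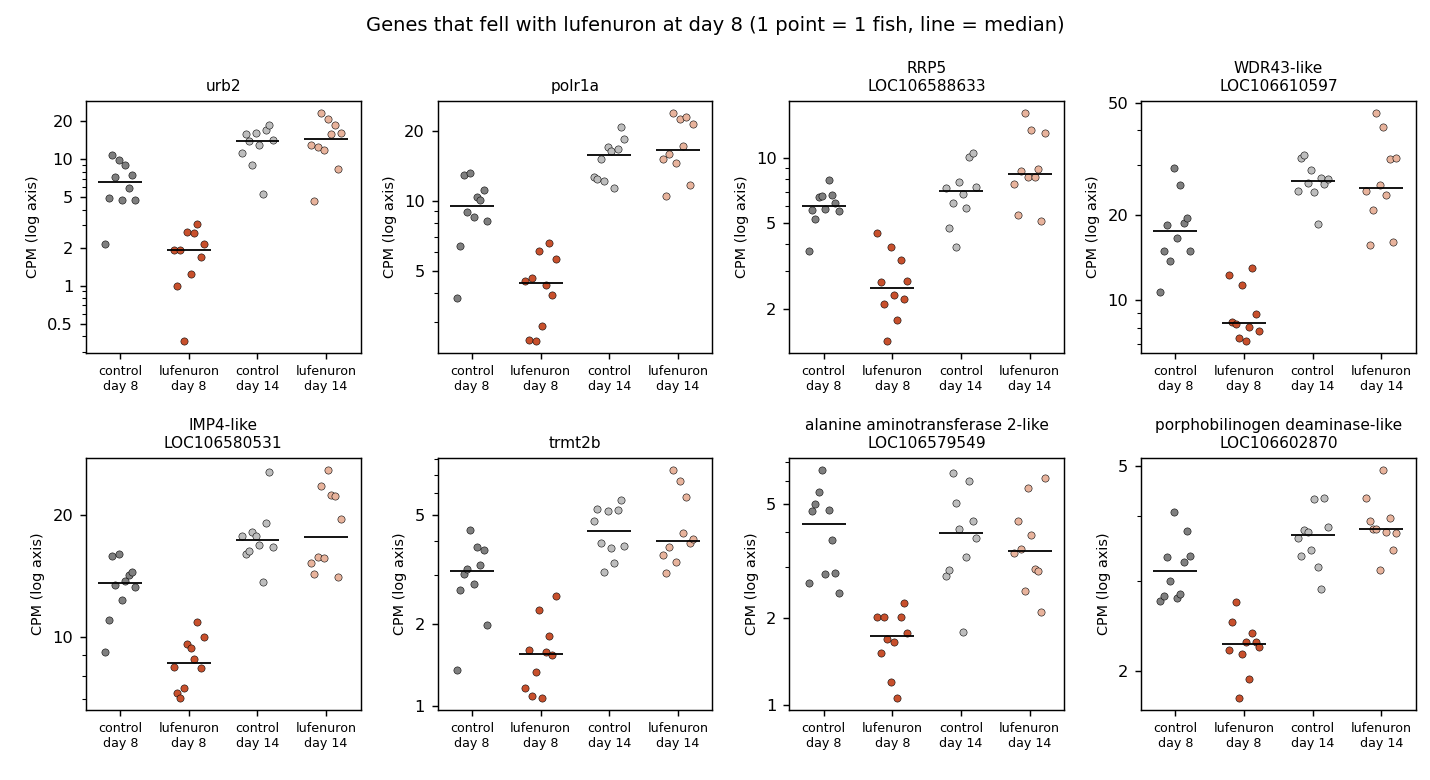
CPM on a log axis in every fish of the 4 groups for 8 genes that fell at day 8, with 10 points a group and the median as a line. At day 8 the exposed fish lie low, as in urb2 with a median of 1.91 against 6.59 CPM, while exposed and control fish of day 14 lie over the same range.

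Transfer RNA was the next group. Of 56 tested genes for enzymes that modify transfer RNA, 11 fell and none rose (19.6%), with a median of -0.33 and 50 negative values. The methyltransferase genes were in front. trmt2b, whose product methylates uridine, had 1.36, 3.11 and 4.41 CPM in controls and 1.07, 1.56 and 2.52 CPM in exposed fish, with 4 exposed fish below every control, a fall of 0.92 ± 0.18 (adjusted p = 0.0126). LOC106590623, a guanine-26 dimethyltransferase-like gene, fell by 1.08 ± 0.23, from 0.860, 1.51 and 2.22 CPM to 0.406, 0.582 and 1.32 CPM. LOC106577597, similar to TRMT10A, and LOC106579246, a guanine-10 methyltransferase, fell by 0.74 ± 0.15 and 0.65 ± 0.14. The ligases that load amino acids onto transfer RNA followed, with 7 falls of 64 tested genes and none higher (10.9%, median -0.31). The glutamate ligase gene LOC106585204 fell by 0.63 ± 0.14 and the serine ligase gene LOC106572754 by 1.40 ± 0.33, from 1.27, 9.51 and 20.4 CPM to 1.57, 4.18 and 6.95 CPM. For the serine ligase the groups overlapped: control fish 1 had the lowest value of all 20 fish, and exposed fish 8, at 6.95 CPM, lay above control fish 6, 8 and 10 as well. Among the calls were mitochondrial ligases, nars2 for asparagine at -0.81 ± 0.19 and yars2 for tyrosine at -0.72 ± 0.18.

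Helicases, which unwind RNA in splicing and in ribosome assembly, had 10 falls of 89 tested DEAD and DEAH box genes and no rise (11.2%, median -0.17). ddx31, a nucleolar helicase, fell by 0.71 ± 0.15 (adjusted p = 0.0133), from 7.46, 9.26 and 13.1 CPM to 4.51, 5.47 and 7.76 CPM, and 8 exposed fish were below every control. Also lower were ddx51 and the DDX10 gene LOC106567721, both acting on ribosomal RNA, by 0.78 ± 0.19 and 0.71 ± 0.17, and ddx39, which takes part in export of messenger RNA, by 0.63 ± 0.15. Splicing factors gave 4 falls of 171 (2.34%, beside 1.16% of all genes, median -0.15), led by the tri-snRNP-associated LOC106603146 at -0.57 ± 0.14 and srsf9 at -0.49 ± 0.12. No splicing factor was called without any of control fish 3 or exposed fish 2, 4 and 6, and 14 were without control fish 1. Leaving out control fish 3 left 1 fall among the helicases and leaving out control fish 1 raised it to 19. For the transfer RNA enzymes the range was 6 to 19 without the same fish, and for the ligases 0, without exposed fish 2, to 14, without control fish 1.

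In the list of nuclear pore and transport proteins 7 of 137 tested genes fell and none rose (5.11%, median -0.18). Importin-7, which carries ribosomal proteins into the nucleus, was represented by LOC106562356, with 18.9, 28.9 and 39.7 CPM in controls and 13.5, 18.9 and 25.7 CPM in exposed fish, a fall of 0.56 ± 0.14 (adjusted p = 0.0277). The exportin-2-like LOC106583177, which returns importin alpha to the cytoplasm, fell by 0.84 ± 0.20, transportin-2 (LOC106606533) by 0.56 ± 0.15, and nup188, a scaffold protein of the pore, by 0.62 ± 0.15. Without control fish 3 or exposed fish 2 no gene of the list was called, and without control fish 1 there were 17. The SUMO list, the pathway in the title of the study, had 4 falls of 73 tested genes and no rise (5.48%, median -0.11). Because the study names that pathway from these fish, the count is not independent evidence of its direction. The SENP3-like LOC106602897, a SUMO protease that acts in the nucleolus, went from 0.890, 1.70 and 2.52 CPM to 0.457, 0.879 and 1.29 CPM, and 5 exposed fish were below every control, a fall of 1.01 ± 0.21. RanBP2-like LOC106586530, a SUMO ligase of the nuclear pore, fell by 0.62 ± 0.15 and overlapped in more fish. The number of SUMO falls lay between 1, without any of control fish 3, 5 and 7 or exposed fish 2, 4 and 6, and 10, without control fish 1.

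Parts of the translation apparatus outside the nucleolus had few calls. Cytosolic ribosomal protein genes had a median of -0.0048 over 197 tested genes, with 107 negative values, no fall and 1 rise (0.508%, near the 0.467% of all genes). That rise, of the L32-like LOC106566216, was 2.35 ± 0.54 and rested on exposed fish 5, at 19.6 CPM; without it the value was 0.67 (adjusted p = 0.282). Translation factors had 3 falls of 140 (2.14%, beside 1.16% of all genes, median -0.14), 2 of them genes for the regulated subunit of initiation factor 2. Of these, if2a fell by 1.04 ± 0.21 (adjusted p = 0.0127), from 2.27, 5.44 and 9.63 CPM to 1.56, 2.88 and 3.66 CPM, and LOC106602525 by 0.88 ± 0.24. The third was an initiation factor 3 gene, eif3j_1, at -0.73 ± 0.20. The calls of LOC106602525 and eif3j_1 were kept in 6 and 7 of the 20 fits without 1 fish. The list had 1 fall without any of control fish 2, 3, 4, 5, 7 and 9 or exposed fish 1, 2, 4, 6 and 10, then 5 without exposed fish 8 and 13 without control fish 1. In mitochondria, 3 of 108 ribosomal protein genes fell (2.78%, beside 1.16% of all genes, median -0.16). Among them were both L12 entries, LOC106591238 by 1.11 ± 0.25 and LOC106606250 by 0.77 ± 0.20, and mrps26 by 0.41 ± 0.11. Here 1 fall was left without any of control fish 3, 5, 7 and 9 or exposed fish 2, 4 and 6, while there were 6 without exposed fish 5 and 9 without control fish 1. Of the proteins that import others into mitochondria 3 of 58 fell (5.17%, median -0.22): the TIM50-like LOC106580763 by 0.96 ± 0.20, from 1.91, 4.79 and 6.70 CPM to 1.39, 2.35 and 3.92 CPM, the Tim10-like LOC106602140 by 1.18 ± 0.26 and the TIM44-like LOC106613715 by 1.02 ± 0.26. In the last, control fish 1 was the lowest of all 20, and 7 controls lay above every exposed fish. The import list had 1 fall without control fish 3, 6 without exposed fish 8 and 13 without control fish 1.

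Among 56 genes of nucleotide synthesis 3 fell and none rose (5.36%, median -0.18). ctps1, which makes cytidine triphosphate, stood at 2.03, 7.33 and 11.3 CPM in controls and 1.73, 2.84 and 3.63 CPM in exposed fish, with 9 controls above every exposed fish, a fall of 1.35 ± 0.29 (adjusted p = 0.0134). The phosphoribosyl donor synthase-like LOC106612209 and the adenylosuccinate synthetase pura2 fell by 0.69 ± 0.18 and 0.47 ± 0.13, the second call being kept in 8 of the 20 fits without 1 fish. The number of falls was 1 without any of control fish 3, 5 and 9 or exposed fish 2, 4 and 6, and 10 without control fish 1. In the polyamine and methyl donor list 4 of 62 fell and none rose (6.45%), while its median was -0.031. They were a type 2 S-adenosylmethionine synthase gene, LOC106563191, at -1.69 ± 0.36, the ornithine decarboxylase 1-like LOC106611136, the entry enzyme of polyamine synthesis, at -1.77 ± 0.44, the PRMT5-like LOC106569427 at -1.42 ± 0.30 and prmt1 at -0.81 ± 0.21, the last pair being arginine methyltransferases. prmt1 had 48.7, 102 and 214 CPM in controls and 46.8, 65.3 and 91.5 CPM in exposed fish, so that the groups overlapped at the low end. Its call was kept in 10 of the 20 fits without 1 fish, and the list had between 2 falls, without any of control fish 3, 5, 7 and 9 or exposed fish 2, 4 and 6, and 10, without control fish 1.

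Of the amino acid breakdown list 2 of 110 fell (1.82%, median -0.0039), a share near the 1.16% of all genes. LOC106579549, similar to alanine aminotransferase 2, which moves the nitrogen of alanine in mitochondria, had 2.44, 4.24 and 6.55 CPM in controls and 1.05, 1.73 and 2.26 CPM in exposed fish. The groups did not overlap, and it fell by 1.25 ± 0.21 (SE, adjusted p = 0.00384). The other, LOC106560341, a 4-hydroxyphenylpyruvate dioxygenase-like gene, was at -1.67 ± 0.44, a call kept in 9 of the 20 fits without 1 fish. Separation of all 10 exposed from all 10 control fish was rare: 7 of 30397 genes showed it, 0.023% of those tested, and all 7 were called. LOC106602870, a porphobilinogen deaminase-like gene of haem synthesis, fell by 0.51 ± 0.093, from 2.73, 3.13 and 4.08 CPM to 1.77, 2.26 and 2.73 CPM, the lowest control lying just above the highest exposed fish. LOC106587430, similar to the Wnt cofactor pygopus 1, fell by 0.62 ± 0.12, from 2.82, 3.59 and 5.98 CPM to 1.82, 2.69 and 2.81 CPM. bcl7b, a subunit of a chromatin remodelling complex, fell by 0.62 ± 0.14, from 5.68, 6.97 and 8.57 CPM to 1.84, 4.83 and 5.47 CPM. The others were the NRF1-like gene and brox, described next, and LOC106592670, similar to a piggyBac transposase, at a mean of 0.276 CPM. That is under the 1 CPM set for naming genes without overlap, and LOC106592670 was named after its values were seen.

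The smallest p among the rises was that of LOC106600841. This gene, similar to NRF1 (nuclear factor erythroid 2-related factor 1), a membrane-bound transcription factor known for proteasome and stress genes, had 5.21, 7.72 and 14.6 CPM in controls and 17.4, 25.9 and 33.2 CPM in exposed fish. The groups did not overlap, and the gene rose by 1.53 ± 0.24 (SE, adjusted p = 0.00178). LOC106600502, a ski-like gene of a family that represses SMAD proteins, rose by 1.26 ± 0.22, from 1.81, 2.62 and 4.02 CPM to 3.37, 5.68 and 15.1 CPM, with 9 exposed fish above every control. LOC106572388, similar to DVL-1, which passes on Wnt signals, rose by 0.80 ± 0.16, from 12.7, 25.7 and 37.7 CPM to 32.8, 44.9 and 58.9 CPM, again with 9 exposed fish above every control. LOC106566301, similar to the corepressor RERE, rose by 0.62 ± 0.12, and LOC106569568, similar to the rho GTPase activator ARHGAP12, by 0.93 ± 0.17, from 4.25, 6.63 and 11.4 CPM to 8.61, 13.6 and 17.4 CPM. All 10 exposed fish were above the control median in these 5 genes, which kept their calls in all 20 fits without 1 fish. No gene of the proteasome list was called (119 tested, median -0.097); the 2 with the smallest p, both for activator subunit 3, were LOC106607192 at -0.96 ± 0.27 and LOC106601269 at -0.73 ± 0.21. In the antioxidant list keap1 (LOC106564503), the sensor that holds back the related factor NRF2, rose by 0.47 ± 0.12, a call kept in 9 of the 20 fits without 1 fish and lost under total count scaling. It was 1 of 2 rises among 74 tested genes (2.70%, median 0.048), the other being the NRF1-like gene; the median was -0.016 with total counts as the only scaling.

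s41a2, a magnesium transporter, was also among the 12 rises with the smallest p and rose by 0.45 ± 0.086, from 17.4, 21.6 and 24.8 CPM to 24.6, 29.6 and 34.6 CPM, and 9 exposed fish lay above every control. LOC106608615, similar to the adhesion receptor ADGRA3, rose by 0.54 ± 0.10, from 11.2, 14.2 and 16.8 CPM to 16.1, 20.5 and 26.2 CPM, with the same number above. LOC106594288, similar to REEP3, which shapes endoplasmic reticulum membranes, rose by 0.43 ± 0.080, a small change within a narrow spread: 5.70, 6.55 and 8.71 CPM in controls and 7.97, 8.90 and 10.3 CPM in exposed fish. Further rises were those of e41l4, a protein of the membrane skeleton, by 1.21 ± 0.24, of the receptor GPRC5C-like LOC106589894 by 0.70 ± 0.14 and of the lysosomal SIDT2-like LOC106580818 by 1.02 ± 0.21. brox, a BRO1 domain gene, rose by 0.37 ± 0.10 (adjusted p = 0.0478) without overlap. The gap was narrow, at 6.02 CPM in the highest control and 6.03 CPM in the lowest exposed fish. Its call was kept in 2 of the 20 fits without 1 fish. Under total count scaling the calls of s41a2 and brox were lost.

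**Figure D3:**
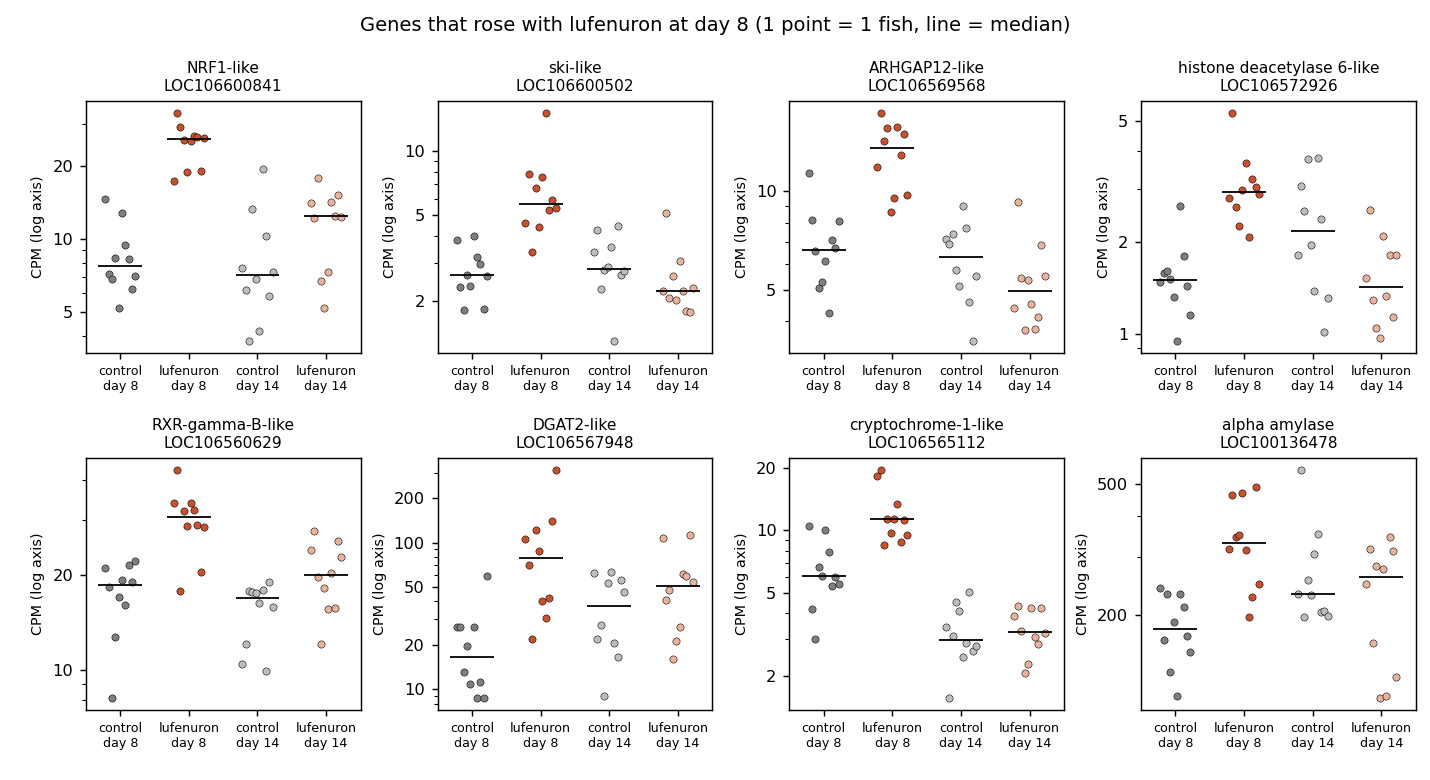
CPM on a log axis in every fish of the 4 groups for 8 genes that rose at day 8, with 10 points a group and the median as a line. The NRF1-like gene separates exposed from control fish at day 8, at 17.4 CPM or more against 14.6 CPM or less, and the other 7 genes overlap in some fish.

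Nuclear receptors gave 3 rises of 107 tested genes and no fall (2.80%, beside 0.467% of all genes), with a median of 0.022 that changed sign in 5 of 30 alternative fits and was -0.055 under total count scaling. Retinoid X receptors pair with many other receptors, and 2 gamma type entries rose. LOC106560629 (RXR-gamma-B-like) had 8.12, 18.6 and 22.2 CPM in controls and 17.8, 30.5 and 43.2 CPM in exposed fish, 8 of them above every control, a rise of 0.77 ± 0.16 (adjusted p = 0.0133). LOC106596748 (RXR-gamma-A-like) rose by 0.83 ± 0.19, from 1.60, 4.03 and 5.15 CPM to 2.80, 6.80 and 8.84 CPM. The third was the bile acid receptor-like LOC106561422, at 0.59 ± 0.15, from 41.0, 52.5 and 77.5 CPM to 63.5, 76.8 and 98.9 CPM, kept in 11 of the 20 fits without 1 fish. The call of LOC106561422 was lost under total count scaling. There were 7 receptor rises without control fish 1. In the cytochrome P450 list 2 of 64 rose (3.12%, median 0.14). The P450 reductase LOC106612446, which feeds electrons to all microsomal P450 enzymes, rose by 0.79 ± 0.20, from 44.5, 107 and 182 CPM to 79.7, 190.3 and 304 CPM, with broad overlap. Its call was kept in 12 of the 20 fits without 1 fish and lost under total count scaling. The other, the CYP26A1-like LOC106577307, whose enzyme degrades retinoic acid, was at 2.22 ± 0.59 and depended on exposed fish 3, at 12.9 CPM; without it the value was 0.91 (adjusted p = 0.334). That fish was also the highest in gut markers, and the part of these markers in its value was not tested. The call of LOC106577307 was also lost under total count scaling. Without any of control fish 3, 4, 5, 8 and 9 or exposed fish 2 and 4 no P450 gene was called.

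Fat synthesis had 4 rises and 1 fall among 101 tested genes (3.96% higher, median 0.064, or -0.011 under total count scaling), and the rises numbered from 1, without any of control fish 3, 5, 8 and 9 or exposed fish 2, 4 and 7, to 8, without control fish 1 or exposed fish 3. LOC106567948, similar to DGAT2, which makes triglyceride, varied widely, with 8.70, 16.6 and 59.3 CPM in controls and 22.1, 79.1 and 314 CPM in exposed fish, and rose by 2.20 ± 0.44 (adjusted p = 0.0127), 6 exposed fish lying above every control. The CIDE-3-like LOC106582793, a protein of lipid droplet fusion, rose by 1.27 ± 0.32. plcg, deposited under the name of an acylglycerol phosphate acyltransferase, rose by 0.48 ± 0.12, from 57.0, 64.5 and 83.9 CPM to 67.9, 92.2 and 137 CPM, while another acyltransferase gene, LOC106586274, fell by 0.69 ± 0.16. At a mean of at least 100 CPM 4 rises and 1 fall were called. The number of tested genes at that level was not counted, so no background goes with these calls. The rises were the elongase elovl5b (LOC100192340), which lengthens polyunsaturated fatty acids, by 0.52 ± 0.14, the fatty acid transporter slc27a2 by 0.80 ± 0.22, the P450 reductase above and an alpha amylase gene, LOC100136478. The amylase had 114, 181 and 241 CPM in controls and 198, 330.0 and 488 CPM in exposed fish and rose by 0.89 ± 0.21. Its name did not match the pancreas list. Exposed fish 9 was the highest in both, with 488 CPM of it and 210.0 CPM of those markers, while exposed fish 5 had 468 and 16.0 CPM. Without the 6 fish high in pancreas markers its value was 0.81, with no gene called in that fit. The 1 abundant fall was the DEPTOR-like LOC106569928, an inhibitor of mTOR, from 103, 180.3 and 265 CPM to 77.7, 93.7 and 154 CPM, a fall of 0.78 ± 0.19 (adjusted p = 0.0277). Calls of slc27a2 and elovl5b were kept in 4 and 8 of the 20 fits without 1 fish, and those of the CIDE-3-like gene and plcg in 11 and 9. Under total count scaling all of these calls were lost.

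The type II deiodinase-like LOC106611368, which activates thyroid hormone, was the 1 rise among 20 thyroid genes (5.0%, beside 0.467% of all genes). It rose by 1.58 ± 0.38, from 5.18, 39.1 and 76.6 CPM to 60.5, 113 and 246 CPM. In the clock list 2 of 77 rose (2.60%, median 0.12): cryptochrome-1-like LOC106565112, a repressor of the clock, by 0.89 ± 0.20, from 3.03, 6.01 and 10.5 CPM to 8.46, 11.3 and 19.5 CPM, and thyrotroph embryonic factor-like LOC106607162 by 0.59 ± 0.15. The hour of sampling is not known here. Glucocorticoid-responsive genes had 2 rises of 59 (3.39%, median 0.069, or -0.013 under total count scaling). FKBP5-like LOC106565346, which tempers the glucocorticoid receptor, rose by 0.70 ± 0.17, from 38.9, 58.3 and 76.3 CPM to 47.4, 94.4 and 129 CPM, and Krueppel-like factor 9 (LOC106585360) by 1.69 ± 0.43, each call kept in 11 of the 20 fits. In the growth brake list 1 of 50 tested genes rose and 1 fell (2.0% each). The rise was trib3, an inhibitor of AKT, by 0.96 ± 0.25, and the fall was the DEPTOR-like gene. The call of trib3 was kept in 9 of the 20 fits without 1 fish. The SOCS3-like LOC106601915, a brake on cytokine and growth hormone signals, was the 1 rise of 53 in its list (1.89%), at 1.60 ± 0.43, kept in 7 of those fits. Under total count scaling the calls of trib3, the SOCS3-like, FKBP5-like and thyrotroph embryonic factor-like genes were lost. In the fasting list 2 of 51 fell (3.92%, beside 1.16% of all genes, median 0.14). A pyruvate dehydrogenase kinase gene, pdk1, fell by 0.49 ± 0.13 and LOC106576855, similar to the PGC-1-related coactivator PRC, by 1.33 ± 0.34. Leaving out 1 fish gave 1 to 4 clock rises, 0 to 4 glucocorticoid rises, 0 to 3 thyroid rises and 0 to 3 rises in the growth hormone list, each highest without control fish 1, and 0 to 2 falls in the fasting list.

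Autophagy and lysosome genes had 1 fall of 110 (0.909%) and cytosolic chaperones 1 of 153 (0.654%), both shares under the 1.16% of all genes. The ATG12 gene LOC106605822 fell by 0.58 ± 0.12 and dnajc24 by 0.68 ± 0.15. Of the 110 tested autophagy and lysosome genes 83 had positive values (median 0.090). Of the 153 tested chaperone genes 110 had negative values (median -0.11), and the number of falls was 13 without control fish 1 and 3 without exposed fish 8. In the glucose list 1 of 89 genes rose (1.12%, beside 0.467% of all genes). It was the glucose-6-phosphate isomerase-like LOC106587569, at 3.30 ± 0.90, from 0.0165, 0.0824 and 1.05 CPM to 0.0239, 0.857 and 6.74 CPM. That call was kept in 5 of 20 fits. The cell cycle list had no call, with 86 of its 97 values negative and a median of -0.25; orc3, a protein that marks replication origins, was at -0.70 ± 0.22 (adjusted p = 0.0891) and cyclin D2 (ccnd2) at -0.66 ± 0.22. Endoplasmic reticulum folding had no call either (65 tested, median -0.15), with the calreticulin-like LOC106599148 at -0.77 ± 0.22 (adjusted p = 0.0630). No gene passed in the lists of complement, coagulation, acute phase proteins, interferon response, cholesterol synthesis, fatty acid oxidation, conjugation, respiratory chain, insulin and mTOR signalling, serine and one-carbon metabolism, p53 and apoptosis, or chitin and hyaluronan, the last of which holds relatives of the arthropod pathway that lufenuron blocks (20 tested, median 0.091). In it the CD44-like LOC106561308, a hyaluronan receptor, was at 1.49 ± 0.54 (adjusted p = 0.142). That value rested on exposed fish 3 and 10, at 27.8 and 10.1 CPM, also the highest in gut markers at 663 and 309.9 CPM: it was 0.58 without exposed fish 3, 0.12 with the gut markers as a covariate and 0.051 without the 6 fish high in pancreas markers. The medians of these 12 lists lay between -0.14, for serine and one-carbon metabolism, and 0.13, for complement, in which 55 of 63 values were positive.

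Salmon carry many genes in duplicate copies from an ancient genome doubling, and names were used to pair them. Among 3826 pairs of tested genes that share 1 name, both copies were called in 21, and in all 21 they moved the same way, 18 down and 3 up. The sources used here do not say how reads shared by near-identical copies were assigned, and the values of such pairs are uncertain. The WD repeat 43-like pair fell by 0.98 and 0.89 (LOC106610597 and LOC106561875), and the nucleolar protein 11 pair, nol11 and LOC106585723, by 1.01 and 0.91. Copies of suppressor of SWI4 1, a large subunit factor, fell by 1.32 and 1.01 (LOC106601282 and LOC106607208), and those of the H/ACA particle subunit 2, nola2 and LOC106603897, by 0.84 and 0.93. The deubiquitinase USP10-like pair fell by 0.88 and 0.81 (LOC106587349 and LOC106587329). Upward, REEP3-like LOC106594288 and LOC106595293 rose by 0.43 and 0.58. The call of LOC106595293 was lost under total count scaling. Further pairs, chosen after their values were seen, were nucleolar protein 58-like LOC106594422 and LOC106575044 at -1.02 and -1.02, GRB14-like LOC106586192 and LOC106581801 at 0.50 and 0.51, and midasin-like LOC106571345 and LOC106571294 at -1.40 and -0.68. In 63 pairs 1 copy alone fell past the threshold, and the other copy was negative in 54 of them, with a median of -0.38 beside -0.72 for the called copy. In 40 pairs 1 copy alone rose, and the other was positive in 30. The share of all 3826 pairs with the same sign was not computed. These counts therefore have no background beside them and are not evidence of a shared change.

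The same contrast in the 20 fish of day 14, 7 days after treatment, gave no call in edgeR (smallest adjusted p = 0.117, 2437 genes at an unadjusted p under 0.05) and 20 in DESeq2. By the labels, body weight varied far more among the fish of day 14 than among those of day 8, and some day 14 controls were lighter than every exposed fish. For some of these controls the labelled weight was low for the labelled length. Whether it was recorded correctly is not known here. In labelled body weight the days are therefore not like comparisons. The day 14 fish also enter the test of the difference between days and the shared estimate of the spread. The part of body weight in the day 14 values was not tested. Genes called at day 8 had day 14 medians of 0.030 for the falls and 0.027 for the rises, and 144 of the 352 falls and 77 of the 142 rises kept their sign. The ribosome assembly list had a day 14 median of 0.023, and its sum was 3117, 4631 and 5901 CPM in controls and 3019, 4547 and 6521 CPM in exposed fish. The difference of the 2 effects was tested for all genes: 15 genes passed (0.0493% of all), 13 of them among the 494 called at day 8. RRP5 (LOC106588633) was at -1.16 ± 0.20 at day 8 and 0.42 ± 0.19 at day 14 (adjusted p of the difference 0.0394), midasin-like LOC106571345 at -1.40 and 0.49, urb2 at -1.85 and 0.11, and polr1a at -1.10 and 0.20. hdac6, a deacetylase of the cytoplasm, and its relative LOC106572926 had values of 0.84 and 0.99 at day 8 and -0.80 and -0.56 at day 14 (0.0394 for each). Neither was called at day 14 in edgeR, so a change in the other direction on that day is not established. The day 8 call of hdac6 was kept in 11 of the 20 fits without 1 fish and lost under total count scaling. Day 8 values of hdac6 were 2.02, 2.57 and 5.54 CPM in controls and 3.63, 4.94 and 7.19 CPM in exposed fish, and of LOC106572926 0.948, 1.50 and 2.63 CPM and 2.08, 2.93 and 5.32 CPM. s41a2 and the ski-like LOC106600502 went from 0.45 and 1.26 to -0.18 and -0.27. The count of 15 was 0 without any of control fish 2, 3, 5 and 9 or exposed fish 9, and 104 without control fish 1.

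**Figure D4:**
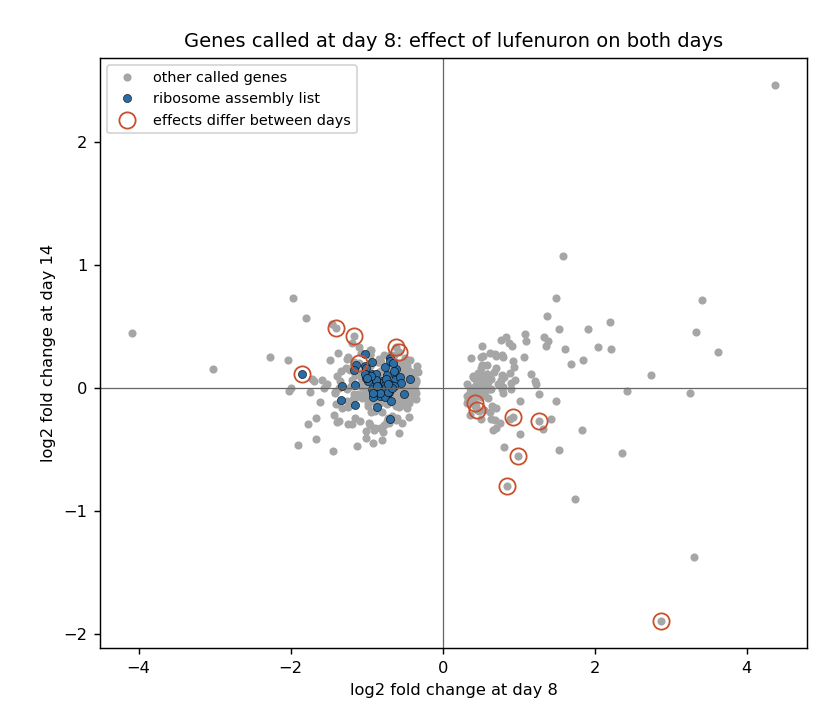
Log2 fold change with lufenuron at day 14 against day 8 for the 494 genes called at day 8, ribosome assembly genes in blue and the 13 genes whose effects differed between days circled. The blue points lie left of 0 at day 8 and around 0 at day 14.

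**Figure D5:**
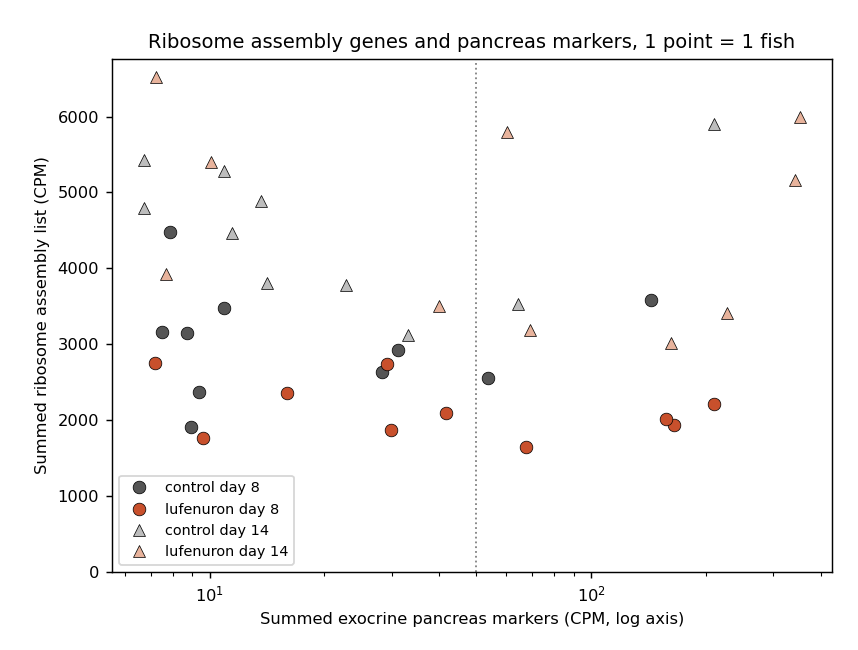
Summed CPM of the ribosome assembly list against summed CPM of the exocrine pancreas markers (log axis), 1 point per fish in the 4 groups, with a dotted line at 50 CPM. Day 8 exposed fish lie between 1651 and 2757 CPM of ribosome assembly genes on both sides of the line.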

How the data were processed

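The data are counts of reads per gene for 40 libraries, as deposited by the authors, whole numbers with no normalization, 1 column per fish. Per the submitters' processing notes, the tools were HISAT2, HTSeq, Cufflinks and DESeq2. The genome build is not given in the sources used here, nor are versions, annotation, strand setting and the treatment of reads shared by duplicate genes. Genes antisense to or overlapping others are uncertain for the same reason. The labels' protocols state poly-T purification of messenger RNA and random hexamer priming.

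Of 79140 gene entries, 30397 passed filterByExpr (minimum count 10, minimum total 15) and held 99.9% of the counts. Counts were scaled by TMM and fitted with edgeR 4.0.16 (limma 3.58.1, R 4.3.3) as 4 group means over the 40 fish, with the robust quasi-likelihood test and Benjamini-Hochberg adjusted p under 0.05 as the threshold. The 3 contrasts were lufenuron against control at day 8, the same at day 14, and their difference. A standard error is the absolute log2 fold change over the square root of F. Fish measures were compared by two-sided permutation tests (100000 resamples, scipy 1.17.1). CPM are the counts scaled by the TMM library sizes. Alternatives were RLE factors, total counts, no filter, the 20 fish of day 8 alone, a replicate block, body weight or marker sums as a covariate, leaving out each day 8 fish or the 6 fish over 50 CPM of pancreas markers, and DESeq2 1.42.0. The fit was also run on simulated counts with 200 changed genes, each gene drawn independently of the others. It cannot show how the test behaves where single fish shift many genes together. The smallest chi-square per gene between any 2 of the 190 pairs of day 8 libraries was 50.4 over 22080 genes, so no library was counted as a duplicate of another.

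The comparison and the gene lists were chosen with earlier results of these data known. List members were matched by symbol or name. The genes named were the 12 with the smallest p per direction and genes without overlap, both at a mean of at least 1 CPM. Up to 6 called genes per direction at 100 CPM or more were added. So were up to 4 called members per list (or the 2 with the smallest p where none was called), 8 genes for the difference between days and 6 duplicate pairs. No minimum of 1 CPM applied to list members, genes of the difference or pairs. Promoter motifs and protein identities were not analysed here.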

Additional observations from a re-analysis of the deposited data

Results flagged for a closer look

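The effect of lufenuron differed between day 8 and day 14 in 11 of the named genes, by the test of the difference itself over all genes (edgeR, Benjamini-Hochberg adjusted). The adjusted p was 0.0394 for LOC106571345, LOC106572926, LOC106588633, hdac6 and s41a2, and 0.0478 for LOC106569568, LOC106594288, LOC106600502, bcl7b, polr1a and urb2. All 11 had opposite signs on the 2 days. No gene was called at day 14 in edgeR. Genes picked by a large difference tend to have opposite signs, so these signs are not separate evidence.

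The gap of an outermost fish to the nearest fish was taken as a share of the whole range of its group, both on a log scale. Chance alone flags about 1 in 20 groups. By that measure single fish stood apart from the other 9 of their group in 32 of 244 groups tested (13.1%). Control fish 1 accounted for 19 of these. It was the lowest control, with a gap of 0.538, 0.508, 0.656, 0.589, 0.529, 0.672, 0.518, 0.539, 0.484, 0.545, 0.478, 0.502, 0.531, 0.625, 0.524, 0.62 and 0.499 of the range, in LOC106563120, LOC106567721, LOC106569427, LOC106572754, LOC106577597, LOC106583177, LOC106585204, LOC106587329, LOC106602525, LOC106602585, LOC106607208, LOC106611136, ddx39, nars2, srsf9, ssu72l and urb2, in that order. It was the highest control, with 0.479 and 0.508, in LOC106561422 and LOC106580818. Control fish 3 stood apart in LOC106564503, LOC106572388, LOC106595293 and LOC106596748, by 0.491, 0.477, 0.607 and 0.473. Control fish 7 stood apart in hdac6, by 0.525. Control fish 10 stood apart in LOC106566216, by 0.584. Exposed fish 3 stood apart in LOC106577307, LOC106595293, LOC106596748 and summed gut and bile duct epithelium markers, by 0.485, 0.485, 0.505 and 0.58. Exposed fish 4 stood apart in urb2, by 0.472. Exposed fish 5 stood apart in LOC106566216, by 0.577. Exposed fish 7 stood apart in bcl7b, by 0.753.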

How the results depend on the processing

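None of the 114 called genes named by rule changed direction in the alternative fits, while the number of calls changed. Other genes named in the text are not in this count. In 3415 recomputed values of the 114 called genes named, none changed sign, 2545 kept the call and 870 lost it. A total of 52 genes kept it in all 20 fits without 1 fish, and 0 kept it in every alternative. The genes were called in the same fish that these fits reuse, so the kept signs are not independent evidence. Leaving out each fish in turn gave 128 to 1246 calls (33 to 379 higher, 95 to 867 lower), and 0 to 104 genes for the difference between days. Without the 6 fish over 50 CPM of pancreas markers there were 0 calls, 0 higher, 0 lower and 0 in the difference. The fits with a covariate or a replicate block used the 20 fish of day 8, which alone gave 479 calls. The pancreas covariate gave 26 (14 higher, 12 lower), the gut covariate 260 (160 lower) and body weight 288 (89 higher, 199 lower). DESeq2 called 1048 (384 higher, 664 lower) and 133 in the difference. Total counts as the only scaling gave 57 higher genes, 89.7% of calls then being lower beside 71.3%, with a median over all genes of -0.062, and 422 in the difference. No filter gave 3 in the difference. The cause of these shifts was not tested.

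Fish numbers do not pair the groups: of 10 same-numbered pairs 3 correlated above 0.1 (r from -0.098 to 0.372 over 21432 genes) and 3 fish matched their own number best. With the replicate block 242 genes were higher and 302 lower. Depth was above 43.4 M reads in every day 8 library and limits genes under about 1 CPM most.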
